A study of Arabidopsis thaliana with 30 samples.

Results

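The B-type cyclins and the B-type cyclin-dependent kinases described here were 10 genes taken by name from the gene count table, a rule that uses no measured value, out of 38217 features in that table. The 6 cyclins were CYCB1;1 (AT4G37490), CYCB1;2 (AT5G06150), CYCB1;3 (AT3G11520), CYCB1;4 (AT2G26760), CYCB2;1 (AT2G17620) and CYCB2;2 (AT4G35620). The 4 kinases were CDKB1;1 (AT3G54180), CDKB1;2 (AT2G38620), CDKB2;1 (AT1G76540) and CDKB2;2 (AT1G20930). All 10 passed the filter on low counts, under which 23222 genes were tested.

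The transcriptome of wild type Arabidopsis thaliana, ecotype Col-0, was measured by RNA-seq from freshly harvested seed to seedling. There were 10 time points with 3 libraries each, on seed collected from a single batch of plants. Sampling began with seed at harvest (H) and with the same seed after dry, dark ripening (0 h), and went on with seed stratified on MS medium at 4 °C for 1 h, 12 h or 48 h (S), and seed moved after 48 h of stratification to continuous light at 22 °C for 1 h, 6 h, 12 h, 24 h or 48 h (SL). The study placed radicle emergence between 12 h SL and 24 h SL. RNA came from whole seeds or seedlings, so that more dividing cells and more transcript in each dividing cell cannot be told apart.

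Entry into mitosis in plants is driven by cyclin-dependent kinases bound to A-type and B-type cyclins, and the B cyclins are made late in the cycle and destroyed at anaphase by the anaphase-promoting complex. CDKB kinases are found in plants and not in animals or fungi, and unlike the constitutive kinase CDKA their own transcription follows the cell cycle, the CDKB1 genes from S phase on and the CDKB2 genes around G2 and M phase. Many G2/M genes carry the mitosis-specific activator (MSA) element, whose core AACGG is bound by MYB3R transcription factors.

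The 250 bases upstream of each gene start were read from the TAIR10 genome and searched on both strands for the MSA core AACGG, which reads CCGTT on the other strand. The core was found at least once in 6 of the 10 genes, against 20.6% of 27443 protein-coding genes. It was also found in 9 of 14 genes of a mitosis and cytokinesis list, 8 of 17 CDK inhibitors, 4 of 10 A cyclins and 1 of 13 DNA replication genes. At least 3 cores were held by 1 of 5 other B cyclins (CYCB2;3), 2 of 17 CDK inhibitors and 0 of 14 mitosis genes. Among the 10 genes at least 3 cores were found in 5, against 0.736% of protein-coding genes. Those 5, all cyclins, are shown because they hold the dense matches, and the cyclin with none and the only kinase with a match are shown beside them, each read 5′ to 3′ along the gene's own strand with the core in capitals.
AT4G37490 (chr4:17624309-17624558, minus strand): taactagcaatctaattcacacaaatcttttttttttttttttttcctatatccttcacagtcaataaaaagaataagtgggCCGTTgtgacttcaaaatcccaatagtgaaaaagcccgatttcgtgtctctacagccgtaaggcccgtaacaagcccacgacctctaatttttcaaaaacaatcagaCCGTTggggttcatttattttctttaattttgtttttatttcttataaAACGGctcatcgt
AT5G06150 (chr5:1861704-1861953, minus strand): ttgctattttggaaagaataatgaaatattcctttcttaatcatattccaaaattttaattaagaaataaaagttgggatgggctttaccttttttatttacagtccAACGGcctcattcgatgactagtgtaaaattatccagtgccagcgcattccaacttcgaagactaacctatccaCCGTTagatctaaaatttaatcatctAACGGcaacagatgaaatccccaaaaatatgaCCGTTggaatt
AT3G11520 (chr3:3627274-3627523, minus strand): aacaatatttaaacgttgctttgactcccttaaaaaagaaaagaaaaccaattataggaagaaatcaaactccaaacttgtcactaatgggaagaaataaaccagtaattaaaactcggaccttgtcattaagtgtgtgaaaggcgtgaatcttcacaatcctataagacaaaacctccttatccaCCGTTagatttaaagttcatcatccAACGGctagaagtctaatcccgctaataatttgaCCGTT
AT2G17620 (chr2:7663805-7664054, plus strand): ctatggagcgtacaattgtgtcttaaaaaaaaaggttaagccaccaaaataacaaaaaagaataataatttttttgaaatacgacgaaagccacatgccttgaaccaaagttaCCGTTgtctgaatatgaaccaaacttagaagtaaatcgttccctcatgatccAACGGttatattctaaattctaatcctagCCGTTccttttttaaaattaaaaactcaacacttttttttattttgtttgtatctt
AT4G35620 (chr4:16901346-16901595, plus strand): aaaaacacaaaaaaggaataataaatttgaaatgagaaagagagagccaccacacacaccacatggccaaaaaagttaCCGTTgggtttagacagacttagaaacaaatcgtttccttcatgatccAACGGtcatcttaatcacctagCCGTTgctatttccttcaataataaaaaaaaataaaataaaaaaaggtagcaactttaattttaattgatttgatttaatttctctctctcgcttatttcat
AT2G26760 (chr2:11400868-11401117, plus strand): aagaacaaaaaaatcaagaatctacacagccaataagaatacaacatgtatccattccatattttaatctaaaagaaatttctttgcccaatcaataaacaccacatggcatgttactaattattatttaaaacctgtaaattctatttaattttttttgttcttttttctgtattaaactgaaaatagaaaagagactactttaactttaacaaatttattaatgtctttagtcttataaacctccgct
AT1G20930 (chr1:7294747-7294996, minus strand): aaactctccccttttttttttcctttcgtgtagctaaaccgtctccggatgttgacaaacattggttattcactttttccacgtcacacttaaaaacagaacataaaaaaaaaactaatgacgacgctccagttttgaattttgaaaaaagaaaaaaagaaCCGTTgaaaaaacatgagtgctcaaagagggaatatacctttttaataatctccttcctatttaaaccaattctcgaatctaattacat
AT5G06150 held 4 cores, the other dense cyclin promoters 3 each, and the most distal of these 16 matches began 172 bases before the start. In AT3G11520 the last core ended at the base just before the annotated start. The paralogs AT5G06150 and AT3G11520 shared the 15-base run tatccaCCGTTagat, and the CYCB2 paralogs shared the 15-base run tcatgatccAACGGt, each of which includes a core. The 8-base E2F sites TTTCCCGC, TTTCGCGC, TTTGCCGC and TTTGGCGC, typical of S phase genes, were found in none of the 10 windows, against 1.40% of all protein-coding genes and 5 of 13 genes of a DNA replication list. These matches are letters in a window, and no binding was measured. With E2F sites so rare over all protein-coding genes, finding none in 10 windows does not set these genes apart from genes in general.

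Levels are given as reads scaled to a common library size by the TMM method (TMM CPM), a scale that corrects for library size and for the share of reads taken by a few very abundant transcripts. Total counts ran from 8234345 to 76294780 reads per library, so 3 reads were worth 0.0244 to 0.351 TMM CPM. From H to 6 h SL, 64 of their 210 values rested on 3 reads or fewer, 9 of those were 0 reads, and the highest value was 3.51 TMM CPM. AT4G37490 held at least 17 reads and AT1G76540 at least 30 in every one of these libraries. At 24 h SL and 48 h SL every value rested on at least 73 reads. Seed storage transcripts summed to 164308 to 179083 TMM CPM at H and to 184 to 201 at 48 h SL, and green tissue transcripts (RBCS1A, LHCB1.3, RBCS1B) to 5229 to 5947 at 48 h SL, so these storage and green tissue markers followed the labels.

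A pair of libraries stood apart. The library 1 h S replicate 2, at 8234345 reads the shallowest, had 615 TMM CPM of green tissue transcripts against 60.3 and 196 in the other 1 h S libraries, and all 10 mitotic genes were higher in it than in the others of its time point. The library 12 h SL replicate 3, at 12038278 reads, gave 19.3% of its reads to its 10 most abundant genes against 4.81% and 5.18%. What set them apart was not tested, and counts that rest on either are given with and without both, a comparison added after the data had been seen.

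**Figure D1:**
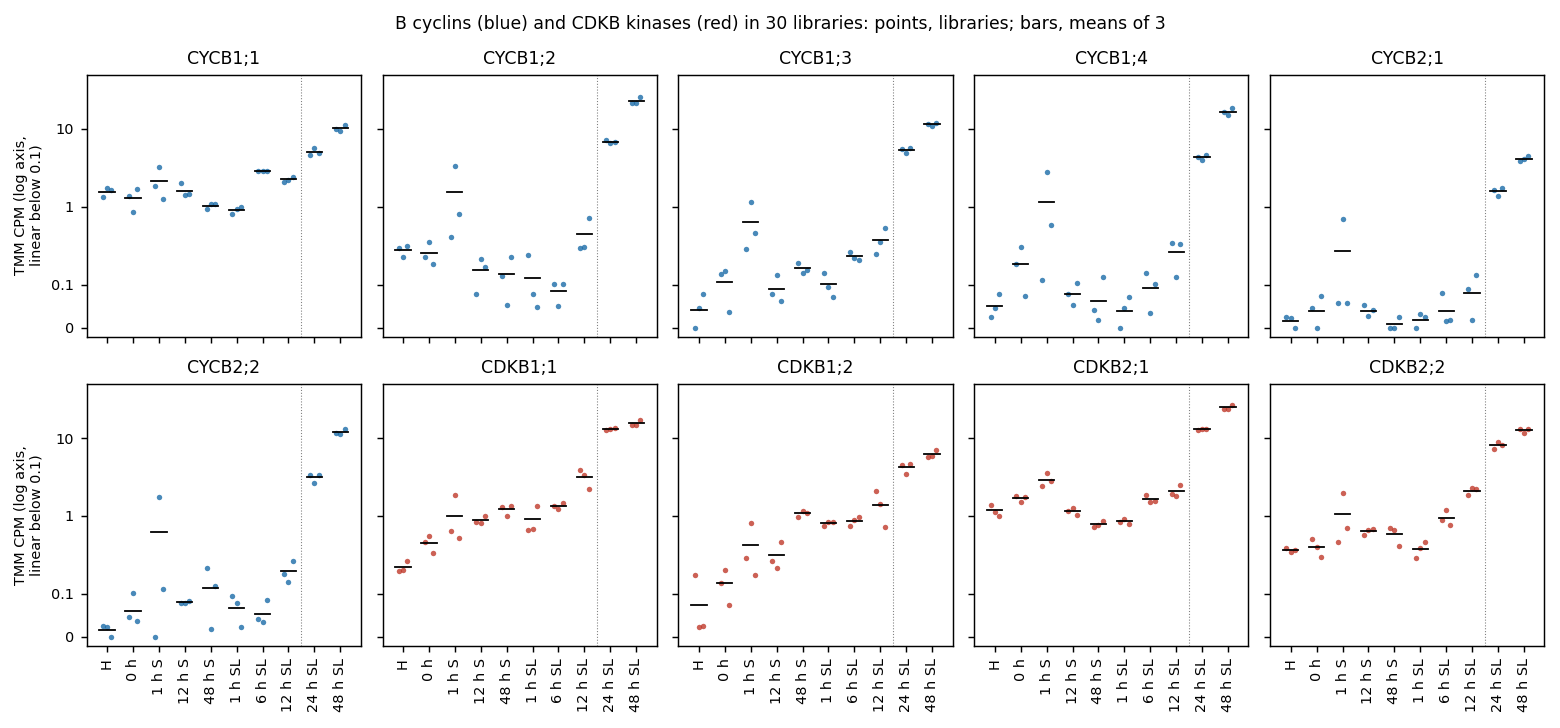
TMM CPM (log axis, linear below 0.1) of each gene at the 10 time points, cyclins in blue and kinases in red, with a point for each library and a bar for the mean of 3. The dotted line marks radicle emergence. All 10 genes are highest at 48 h SL, and CYCB1;1 and CDKB2;1 are the only ones with no library below 0.723 TMM CPM.

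All 10 genes varied over the time course (DESeq2 likelihood ratio test, adjusted p below 0.01 in 10 of 10, against 73.8% of all genes with reads), and all 10 had their highest mean at 48 h SL. From 0 h to 48 h SL all 10 rose, where 45.8% of all genes tested did. Their median log2 fold change was 6.01, against 0.44 over all genes. The smallest rise was that of AT4G37490, by 2.95 ± 0.23 (SE) on the log2 scale, and the largest that of AT4G35620, by 7.63 ± 0.64 (edgeR, adjusted p 3.95e-12 and 1.43e-11). The low end of this comparison rests on very few reads: the latter gene had 4 reads over the 3 dry seed libraries and 4110 over the 3 seedling libraries, a ratio of 208 with an exact 95% interval of 81.0 to 762, and AT2G17620 had 3 reads against 1412, a ratio of 95.1 (32.5 to 462). These intervals cover counting error only. AT4G37490, with 93 reads at 0 h, had a ratio of 7.63 (6.21 to 9.48).

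The early time points are described first. None of the 10 genes was called between H and 0 h (edgeR, adjusted p below 0.01 in 0 of 10, against 8.82% of all genes tested in either direction). Unadjusted p was below 0.05 for 2 of them, against 35.8% of all genes, and the DESeq2 Wald test called 0, against 10.8%. CYCB1;1, which in addition to its place at G2/M is a cyclin induced by DNA damage, was read at 1.35, 1.73 and 1.63 TMM CPM in the 3 libraries at H and at 1.37, 0.856 and 1.71 at 0 h. CDKB2;1, a kinase needed for shoot meristem organisation, had 1.40, 1.13 and 1.00 at H and 1.78, 1.51 and 1.75 at 0 h. Its libraries did not overlap, but the change of 0.51 ± 0.18 had an adjusted p of 0.0422. Per kilobase of exon these were the leading transcripts of dry seed, at 0.804 ± 0.263 (SD, n = 3) for the cyclin and 1.23 ± 0.106 for the kinase, and neither overlapped its neighbour in the order. The other 8 genes were at or below 0.554 TMM CPM in every dry seed library.

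At 1 h S the 10 genes were highest in the same library. AT5G06150, a G2/M cyclin, was read at 0.403, 3.39 and 0.811 TMM CPM, AT2G26760 at 0.115, 2.81 and 0.579 and AT4G35620 at 0, 1.75 and 0.116. In each case replicate 2 was highest, and its excess over the mean of the other replicates came to between 3.65% and 16.7% of the 48 h SL level for the 10 genes, and to between 7.61% and 9.26% for the 3 green tissue markers. From 0 h to 1 h S 1 of 10 rose, CYCB1;3, by 2.40 ± 0.57 (edgeR, adjusted p = 0.00873), against 1.24% of all genes. Without both doubted libraries its change was 1.86, with an adjusted p of 0.0759, and none of the 10 was called. The count was 0 with any single 0 h library or 1 h S replicate 2 left out, 6 without 1 h S replicate 1 and 2 without 1 h S replicate 3.

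From 1 h S to 12 h S, 4 of 10 fell, against 17.7% of all genes. AT1G76540 fell from 2.42, 3.51 and 2.78 TMM CPM to 1.17, 1.27 and 1.03, with no overlap, a change of -1.30 ± 0.18 (edgeR, adjusted p 1.76e-06) that was -1.22 without the doubted libraries (adjusted p 4.24e-06). The changes of AT5G06150 and AT3G11520 were -3.04 and -2.60, and -2.02 and -2.09 without those libraries, where both remained called. That of AT2G26760 was -3.48, and without them -2.12 with an adjusted p of 0.0245.

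During the rest of stratification 1 gene rose and 1 fell, against 27.0% and 24.8% of all genes. CDKB1;2, which acts with AT3G54180 at G2/M and in the last division of the stomatal lineage, had 0.260, 0.211 and 0.460 TMM CPM at 12 h S and 0.978, 1.16 and 1.09 at 48 h S, a change of 1.76 ± 0.37 (edgeR, adjusted p = 0.000165). Its groups did not overlap. AT1G76540 changed by -0.55 ± 0.18 (adjusted p = 0.00999), at the edge of the threshold, and was no longer called without 12 h S replicate 1 or 2 or 48 h S replicate 1 or 2, which left 1 of 10. Without both doubted libraries it was called at -0.57 (edgeR, adjusted p = 0.00331). AT4G37490 was then called as well, at -0.66 (adjusted p = 0.00547). After 1 h in light at 22 °C 0 of 10 were called, against 8.09% of all genes in either direction. Unadjusted p was below 0.05 for 1 of them, against 29.1% of all genes, and the DESeq2 Wald test called 0, against 9.66%.

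Between 1 h SL and 6 h SL, 3 of 10 rose, against 17.3% of all genes. CYCB1;1 had 0.811, 0.939 and 0.988 TMM CPM at 1 h SL and 2.86, 2.86 and 2.89 at 6 h SL, a change of 1.65 ± 0.23 (edgeR, adjusted p 1.16e-06). It was the only cyclin of the 6 to be called at this step, and was not called between 6 h SL and 12 h SL, with 2.11, 2.19 and 2.45 at 12 h SL (-0.36 ± 0.22, adjusted p = 0.191). AT1G76540 rose by 0.93 ± 0.17 (adjusted p 6.67e-05) and CDKB2;2, its paralog, by 1.32 ± 0.29 (adjusted p = 0.000562). Of 8 DNA damage response genes, 3 rose at this step, SOG1, BRCA1 and GMI1, with a median log2 fold change of 0.20 for the list.

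Between 6 h SL and 12 h SL, 2 of 10 rose, against 10.7% of all genes. CDKB1;1 had 1.35, 1.23 and 1.44 TMM CPM at 6 h SL and 3.85, 3.33 and 2.19 at 12 h SL, a change of 1.26 ± 0.25 (edgeR, adjusted p = 0.00035). AT1G20930 had 0.898, 1.17 and 0.773, then 1.86, 2.28 and 2.19, a change of 1.14 ± 0.25 (adjusted p = 0.000958). Neither pair of groups overlapped, and in both CDKB1 genes replicate 3 was the lowest 12 h SL library. Without the doubted libraries 4 of 10 were called, the further ones being AT2G38620 (0.98, adjusted p = 0.00716) and AT5G06150 (1.79, adjusted p = 0.00595).

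By 12 h SL, before the radicle had emerged, most of the kinases had risen above their dry seed level. From 0 h to 12 h SL 5 of 10 rose, against 37.1% of all genes, 3 of the 4 kinases and 2 of the 6 cyclins. The median log2 fold change was 2.63 for the kinases, 0.66 for the cyclins and 0.23 over all genes. Apart from CYCB1;1, each cyclin had 3 to 17 reads over the 0 h libraries and 7 to 41 over those of 12 h SL. Each kinase had 9 to 116 and 181 to 390, so the cyclin changes and calls rest on fewer reads. The changes of the called kinases were 2.86 ± 0.33 for CDKB1;1, 3.47 ± 0.49 for CDKB1;2 and 2.41 ± 0.32 for CDKB2;2 (edgeR, adjusted p 8.35e-09, 3.27e-07 and 1.65e-07). The called cyclins were CYCB1;1 at 0.74 ± 0.24 and CYCB1;3 at 1.73 ± 0.54 (adjusted p 0.00762 and 0.0051). The 3 kinases remained called with any single 0 h or 12 h SL library left out, but 1 or both of the cyclins were lost each time, leaving 4 of 10 with any single 0 h library or 12 h SL replicate 1 left out and 3 of 10 with 12 h SL replicate 2 or 3 left out. Without both doubted libraries the first of these cyclins had an adjusted p of 0.0104. CDKB2;1 was at 1.90, 1.80 and 2.52 TMM CPM, above all its dry seed libraries but by a change of only 0.26 ± 0.18 (adjusted p = 0.276). The difference between the families was not tested. In this comparison the scaling matters: with library size alone the median of all genes moved by 0.86 (and by 1.22 from 0 h to 48 h SL), and with DESeq2's size factors by -0.15, and under the latter the kinases alone remained called.

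**Figure D2:**
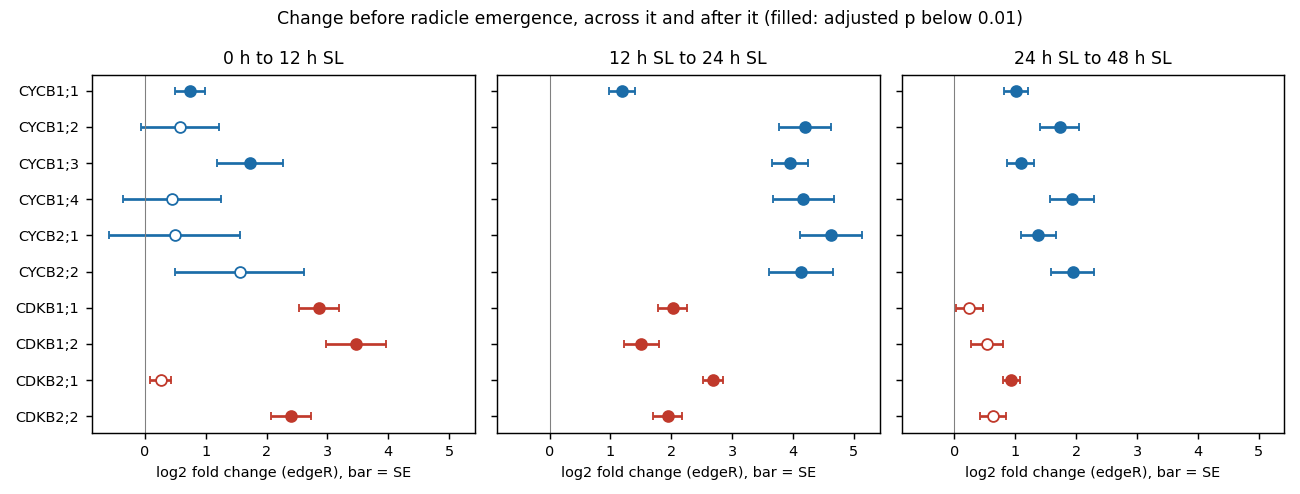
Log2 fold change with its SE from 0 h to 12 h SL, from 12 h SL to 24 h SL and from 24 h SL to 48 h SL, cyclins in blue and kinases in red, filled where adjusted p was below 0.01. On the left 3 of the 4 kinases lead, with family medians of 2.63 against 0.66, while CDKB2;1 has the smallest change of the 10 genes at 0.26. In the middle 5 of the 6 cyclins lead at 3.95 to 4.63.

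Across radicle emergence all 10 genes rose, where 25.9% of all genes tested did. The median log2 fold change from 12 h SL to 24 h SL was 3.32 for the 10 genes and 0.08 over all genes. For the cyclins it was 4.15 and for the kinases 1.98, and apart from AT4G37490 at 1.19 every cyclin lay above every kinase. All 10 remained called without the doubted libraries.

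CYCB1;2 had 0.294, 0.303 and 0.728 TMM CPM at 12 h SL, 7.27, 6.53 and 6.87 at 24 h SL and 21.3, 21.5 and 25.8 at 48 h SL. Its lowest 24 h SL library was thus far above its highest 12 h SL library, and the change was 4.20 ± 0.43 (edgeR, adjusted p 6.83e-09). CYCB1;3, a mitotic cyclin close to it in sequence, had 0.249, 0.357 and 0.530, then 5.50, 4.85 and 5.74, then 11.6, 11.0 and 11.8, and changed by 3.95 ± 0.30 (adjusted p 5.73e-11). CYCB1;4, the fourth cyclin of the B1 group, had 0.340, 0.125 and 0.331, then 4.38, 4.01 and 4.69, then 16.7, 15.0 and 18.3, and changed by 4.17 ± 0.50 (adjusted p 9.94e-08). None of these groups overlapped the next.

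The CYCB2 cyclins, which act in mitosis, had the lowest mean dry seed levels of the 10 genes per kilobase of exon. These rested on 3 reads of CYCB2;1 and 4 of CYCB2;2 over the 0 h libraries. Both genes overlapped the libraries of CYCB1;3, the next in the order. CYCB2;1 had 0.0906, 0.0178 and 0.132 TMM CPM at 12 h SL, from 7 reads in all, then 1.65, 1.38 and 1.72, then 3.91, 4.06 and 4.45. CYCB2;2 had 0.181, 0.143 and 0.265, then 3.35, 2.67 and 3.34, then 11.7, 11.1 and 13.2. Both thus rose at each step with no overlap. The changes across emergence were 4.63 ± 0.51 and 4.13 ± 0.52 (edgeR, adjusted p 2.54e-08 and 2.28e-07). CYCB1;1 was the exception among the cyclins, with 2.11, 2.19 and 2.45 at 12 h SL, 4.69, 5.66 and 4.97 at 24 h SL and 9.95, 9.51 and 11.4 at 48 h SL, and a change of 1.19 ± 0.21 (adjusted p 2.98e-05). The ratio of AT5G06150 to AT4G37490, per kilobase of exon, was 0.204 at 0 h, 0.563 at 1 h S, 0.0266 at 6 h SL, 0.171 at 12 h SL, 1.22 ± 0.177 at 24 h SL and 1.99 ± 0.0614 at 48 h SL (SD, n = 3).

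Among the kinases CDKB2;1 had 12.8, 12.9 and 13.2 TMM CPM at 24 h SL and 23.7, 23.9 and 26.9 at 48 h SL. Its change from 12 h SL to 24 h SL, 2.69 ± 0.16, was the largest of the kinases and had the lowest adjusted p of the 10 genes, 1.35e-12 (edgeR). CDKB2;2 had 7.20, 8.84 and 8.20, then 12.9, 11.6 and 13.2, after a change of 1.94 ± 0.24 across emergence (adjusted p 1.34e-07). Per kilobase of exon the ratio of the former to the latter was lowest at 12 h SL, at 1.01 ± 0.187, and was 1.65 ± 0.158 at 24 h SL and 2.01 ± 0.128 at 48 h SL. It was above the last of these in the means of H (3.26), 0 h (4.47), 1 h S (3.74) and 1 h SL (2.38), where single libraries held as few as 8 reads of AT1G20930.

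CDKB1;1, the kinase that supports divisions from S phase to M phase, had 12.5, 13.3 and 13.3 TMM CPM at 24 h SL and 14.5, 14.7 and 17.2 at 48 h SL, after a change of 2.02 ± 0.24 across emergence (edgeR, adjusted p 8.94e-08). CDKB1;2 had 2.06, 1.41 and 0.728 at 12 h SL, 4.55, 3.48 and 4.61 at 24 h SL and 5.67, 5.80 and 7.00 at 48 h SL, a change of 1.51 ± 0.29 across emergence (adjusted p 8.19e-05) that was 1.28 ± 0.26 without the doubted libraries. Both CDKB1 genes therefore had most of their seedling level by 24 h SL. Their ratio per kilobase of exon was 3.92 ± 0.990 at 0 h and 3.41 ± 0.974 at 12 h S, from few reads, then 1.26 ± 0.288 at 48 h S and 1.23 ± 0.478 at 1 h SL, and again 3.50 ± 0.636 at 24 h SL and 2.79 ± 0.0562 at 48 h SL, the former gene being the more abundant in each of these means.

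After emergence all 6 cyclins and 1 of the 4 kinases passed the test for a further rise. From 24 h SL to 48 h SL 7 of 10 rose, against 21.9% of all genes. These were all 6 cyclins, with a median log2 fold change of 1.55 and a range of 1.01 to 1.94, and 1 of the 4 kinases, whose median was 0.59. CDKB2;1 was the called kinase at 0.93 ± 0.14 (edgeR, adjusted p 3.38e-06). AT1G20930 changed by 0.64 ± 0.21 (adjusted p = 0.0139, and 0.0016 without the doubted libraries), AT2G38620 by 0.54 ± 0.26 (adjusted p = 0.085) and CDKB1;1 by 0.25 ± 0.22 (adjusted p = 0.359). In each of these kinases the lowest 48 h SL library was still above the highest 24 h SL library. In the same order these were 11.6 against 8.84, 5.67 against 4.61 and 14.5 against 13.3 TMM CPM. The largest cyclin changes were 1.94 ± 0.36 for AT4G35620, 1.93 ± 0.36 for AT2G26760 and 1.73 ± 0.32 for AT5G06150 (adjusted p 5.16e-05, 5.17e-05 and 4.92e-05). From 12 h SL to 48 h SL all 10 rose, where 37.5% of all genes did, with medians of 5.97 for the cyclins and 2.42 for the kinases.

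**Figure D3:**
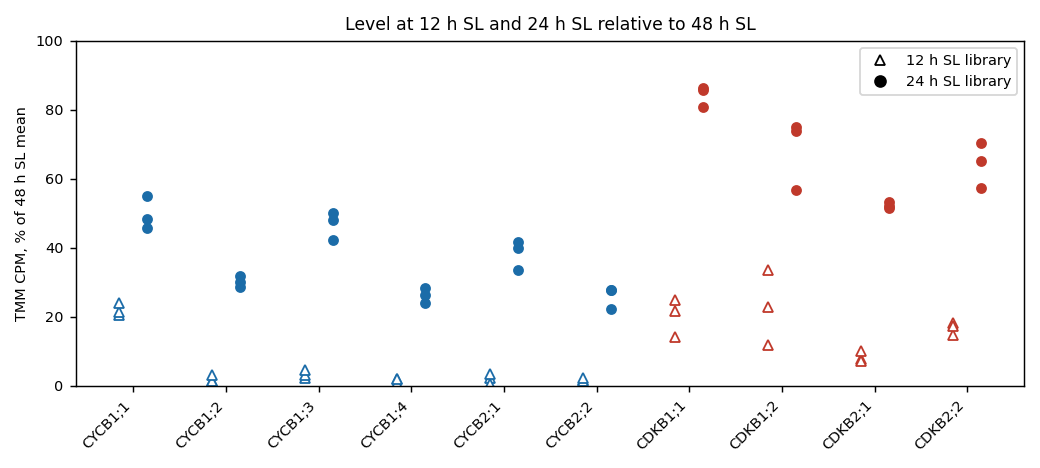
TMM CPM of each 12 h SL library (triangles) and each 24 h SL library (circles) as a percentage of the gene's own 48 h SL mean, cyclins in blue and kinases in red. At 24 h SL the gene means lie at 25.9% to 49.7% for the cyclins and at 52.3% to 84.3% for the kinases.

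Relative to each gene's own 48 h SL mean, the cyclins had reached 25.9% (AT4G35620) to 49.7% (AT4G37490) at 24 h SL and the kinases 52.3% (AT1G76540) to 84.3% (AT3G54180). Single libraries ran from 22.2% to 55.1% in the cyclins and from 51.5% to 86.3% in the kinases and so overlapped, between AT4G37490 and AT1G76540. At 12 h SL 5 cyclins stood at 1.59% to 3.31% of their 48 h SL level, AT4G37490 at 21.9%, and the kinases at 8.35% to 22.7%.

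**Figure D4:**
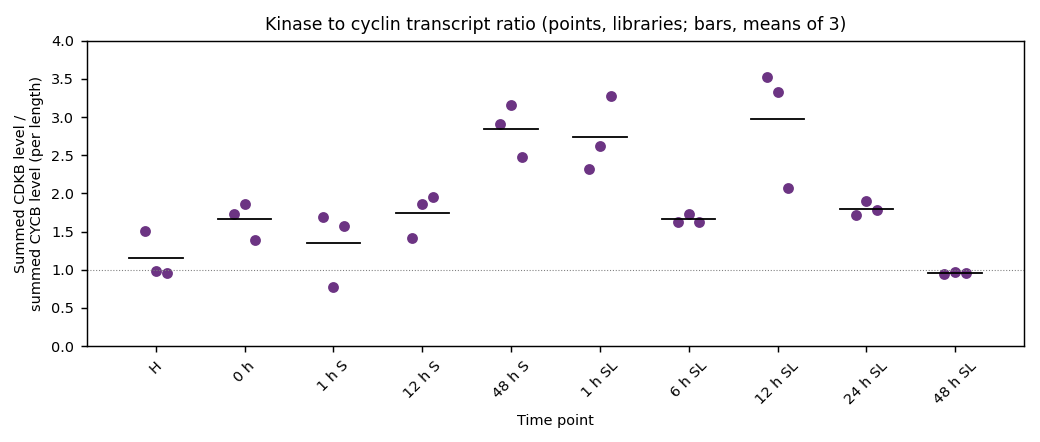
Ratio of the summed level of the 4 CDKB kinases to that of the 6 B cyclins described here, per kilobase of exon. Each library is a point and the bar is the mean of 3. Other B cyclins are not in the sum. The 48 h SL libraries sit together at 0.949 to 0.973, below all 24 h SL libraries at 1.71 to 1.91 and all 12 h SL libraries at 2.08 to 3.52.

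Summed per kilobase of exon, transcripts of the 4 kinases exceeded those of the 6 cyclins in the mean of each time point before 48 h SL. Single libraries of H and 1 h S went down to a ratio of 0.952 and 0.780. The 5 other B cyclins, CYCB2;4 among them, are not in these sums, and adding their transcripts would lower the ratios. The ratio of the sums was 2.98 ± 0.786 at 12 h SL (SD, n = 3), 1.80 ± 0.0964 at 24 h SL and 0.958 ± 0.0130 at 48 h SL, and the libraries of these 3 time points did not overlap. The ratio is described without a test. Earlier it had no steady course, with 1.15 ± 0.315 at H, 1.66 ± 0.244 at 0 h, 1.35 ± 0.495 at 1 h S, 1.75 ± 0.288 at 12 h S, 2.85 ± 0.342 at 48 h S, 2.74 ± 0.491 at 1 h SL and 1.67 ± 0.0590 at 6 h SL. The means at 48 h S and 1 h SL thus lay within the range of the 12 h SL libraries.

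At 48 h SL the order of the 10 transcripts per kilobase of exon was led by CDKB2;1 at 18.2 ± 1.32 RPKM on the TMM scale (SD, n = 3), above all libraries of every other gene. AT5G06150 at 12.5 ± 1.37 and AT3G54180 at 11.2 ± 1.10 followed and overlapped each other. The next pair, AT2G26760 at 9.14 ± 0.929 and AT1G20930 at 9.03 ± 0.631, overlapped too, as did AT3G11520 (6.92), AT4G35620 (6.90) and AT4G37490 (6.30) in turn. AT2G38620 at 4.02 ± 0.478 and AT2G17620 at 2.49 ± 0.167 were lowest, each apart from its neighbours. AT4G37490 thus went from the second place in dry seed to the eighth in the seedling.

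Other cell cycle genes were counted by list at the same steps. Of all genes tested 25.9% rose and 22.0% fell across emergence, and 21.9% rose and 19.0% fell after it. Of the 5 other B cyclins, 4 could be tested and 3 rose at both steps. CYCB2;4 rose by 4.45 ± 0.48 and then 1.83 (edgeR, adjusted p 1.71e-08 for the first), from a mean of 0.209 TMM CPM at 12 h SL to 3.92 and 14.0, and CYCB2;3 and CYCB3;1 rose by 3.14 and 2.39 across emergence. CYCB1;5 was at -1.19 ± 0.40 (adjusted p = 0.0134), and CYCB2;5, which was not tested, was at 0 in all libraries from 6 h SL to 24 h SL. Of 9 A cyclins tested, which act from S phase to mitosis, 6 rose across emergence and none fell, and after it 3 rose and 2 fell, the last a share close to the 19.0% of all genes. CDKA;1, the constitutive kinase, had means of 46.1 TMM CPM at 12 h SL, 35.3 at 24 h SL and 30.8 at 48 h SL (-0.39 ± 0.16 across emergence, adjusted p = 0.0418).

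Most genes of mitosis and cytokinesis on a list of 14 also rose at both steps. Of these, 12 rose and none fell across emergence, with a median log2 fold change of 2.96, and 10 rose and 1 fell after it, with a median of 1.29. The changes at these steps were 4.55 and 2.18 for KNOLLE, the syntaxin of the cell plate, 4.36 and 1.96 for HINKEL, a cytokinetic kinesin, and 4.48 and 1.81 for CDC20.1, an activator of the anaphase-promoting complex. TPX2, a spindle assembly factor, had 3.26 and 2.16, and POK2, a kinesin of the division plane, 3.10 and 1.93. Of 7 regulators of the anaphase-promoting complex, 4 rose and 2 fell across emergence, against 25.9% and 22.0% of all genes. CCS52B, the activator expressed at G2/M, rose by 1.88 and then by 1.32. The list was mixed: CCS52A1 rose by 2.20 across emergence and was at -0.08 after it (adjusted p = 0.81, edgeR). CCS52A2 changed by -0.61 and -0.53 at these steps, and SAMBA by -1.19 and -0.89.

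Genes of earlier cell cycle phases were high sooner. Of 13 DNA replication genes 10 rose between 1 h SL and 6 h SL, against 17.3% of all genes (median log2 fold change 1.93). Across emergence 6 rose and 1 fell, against 25.9% and 22.0%, and after it 0 rose and 2 fell, against 21.9% and 19.0% (median -0.53). Of 10 D cyclins, which act at the entry into the cycle, 7 rose and 1 fell between 1 h SL and 6 h SL, against 17.3% and 16.8% of all genes. Their highest time points were spread, with 3 of the 9 that reached a mean of 1 TMM CPM highest at 6 h SL, 2 at 12 h SL and 2 at 48 h SL. At 12 h SL the median of these 9 D cyclins stood at 74.3% of its highest time point, the median replication gene at 46.4%, the median CDKB kinase at 18.5%, the median mitosis gene at 5.71% and the median B cyclin at 1.94%. At 24 h SL the same medians were 60.0%, 100%, 66.3%, 39.9% and 34.2%.

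**Figure D5:**
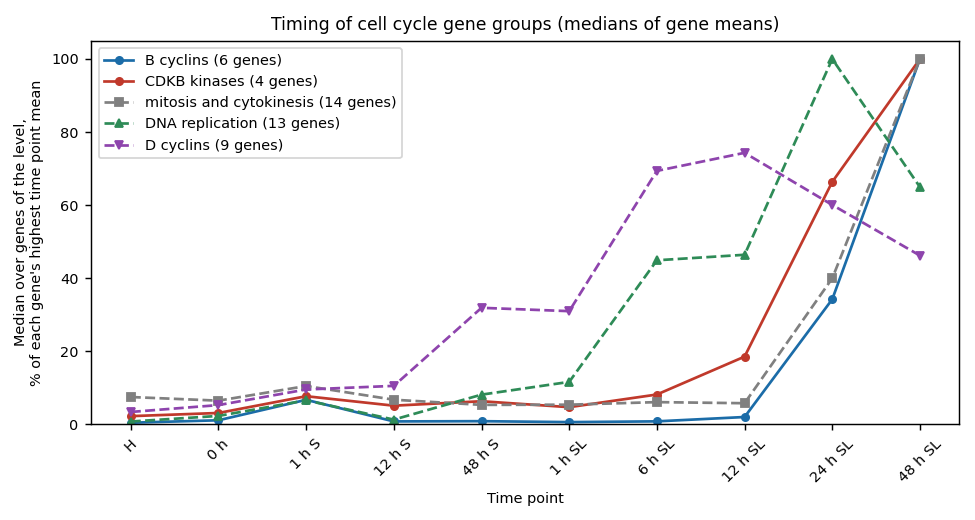
Median over the genes of each group of the level at each time point, as a percentage of the gene's highest time point mean. The group median is highest at 12 h SL for D cyclins (74.3%, after 69.4% at 6 h SL), at 24 h SL for DNA replication genes (100%) and at 48 h SL for kinases, mitosis genes and B cyclins, with the kinases ahead of the cyclins at 12 h SL (18.5% against 1.94%) and 24 h SL (66.3% against 34.2%).

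Among 12 MYB3R and E2F regulators, 5 rose and 3 fell across emergence, against 25.9% and 22.0% of all genes, so that the number that fell is near the background. MYB3R4, an activator that binds the MSA element, rose by 2.10 ± 0.25 and then by 1.55 ± 0.22 (edgeR, adjusted p 9.47e-08 and 1.33e-06). MYB3R1 rose by 0.90 ± 0.23 across emergence (adjusted p = 0.00156) and was at 0.59 after it (adjusted p = 0.0262). MYB3R2 fell by 1.97 and then 1.93 on the log2 scale (adjusted p 0.000325 and 0.00894). Of 16 CDK inhibitor genes tested 7 rose and 5 fell across emergence, against 25.9% and 22.0% of all genes, and 0 rose and 4 fell after it, against 21.9% and 19.0%.

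Some tissue markers also changed in level over this interval. The 3 green tissue markers summed to 488 to 741 TMM CPM at 12 h SL and to 2351 to 3246 at 24 h SL, the 3 endosperm markers to 1013 to 1404 and then 501 to 683, and the 6 root and shoot meristem markers to 10.7 to 11.9 and then 5.68 to 7.51. All 3 green tissue markers rose from 12 h SL to 24 h SL. Of the endosperm markers 1 passed the test, MAN7, which fell by 0.92 on the log2 scale, while EXPA2 (adjusted p = 0.397) and EPR1 (0.011) did not. Of the 6 meristem markers 1 passed, CLV3, a peptide gene of the shoot stem cells, which fell by 4.13 on the log2 scale, from a mean of 3.03 to 0.178 TMM CPM. PLT2 was at 0.13 (edgeR, adjusted p = 0.636) and STM at -0.55 (adjusted p = 0.0388). At 48 h SL the meristem sum was 6.73 to 7.28, and from 24 h SL on WUS and WOX5, regulators of the stem cell niches, rose by 3.05 and 3.26 while PLT2 fell by 1.03 on the log2 scale. The part of a changing tissue mix in the rise of the mitotic genes was not tested.

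The profiles of the 10 genes over the 30 libraries lay close to their common mean, with Pearson r from 0.903 for AT2G38620 and 0.935 for AT4G37490 to 0.994 for AT3G11520. These correlations share the libraries and their depth and are a description. Of 23212 other genes tested, 2018 had r above 0.9 with that mean profile, so a high r is common. The 10 most alike were AT2G21550 (0.994), AT2G04680 (0.993), CYCA1;1 (0.992), AT5G62550 (0.992), AT5G17160 (0.991), AT5G01910, GPAT8 and AT1G58170 (0.991 each), AT4G15070 and AT4G15140 (0.990 each). AT5G17160 had the highest of these in TMM CPM, which does not correct for length, with means of 1.12, 14.7 and 49.2 TMM CPM at 12, 24 and 48 h SL. CYCA1;1, an A cyclin of the mitotic phase, had means of 0.580, 5.02 and 17.7.

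At the transcript level only 2 of the 10 genes had a second listed transcript with enough signal to compare, CYCB1;2 and CDKB1;2. The log2 ratio of their transcripts changed over time in both (limma F-test, adjusted p 4.32e-12 and 0.000495), against 58.0% of 8324 genes. The second transcript of AT5G06150 made up 22.9% to 47.6% of the pair in the 12 h SL libraries, 4.75% to 8.90% at 24 h SL and 1.32% to 4.55% at 48 h SL. The first rose from a mean of 0.166 TPM (a transcript abundance corrected for length) to 4.19 and 16.9. The second went from 0.120 to 0.293 and 0.514, so the early shares rest on very low values. Before the tested log2 ratio was taken, 0.1 TPM was added to each transcript, which draws the ratio toward equal levels at such values. The part of this in its change over time was not tested. The second transcript of AT2G38620 made up 4.10% to 70.4% in the 24 h SL libraries, a spread that leaves no clear level, and 1.12% to 4.53% at 48 h SL.

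Reads of some of these genes can be shared with others. Of the 31-base words of the exons of AT5G06150, 20.6% also occur elsewhere in the genome, at no listed gene, and 35 words of each CDKB1 gene occur in the other. The other 7 genes have 9 such words or none. All 4 kinase genes overlap a neighbour on the opposite strand, and these libraries do not mark strand. The overlap was 71 bases for AT3G54180, with a neighbour (AT3G54190) at means of 36.0 to 60.6 TMM CPM, and 281 bases for AT2G38620, with a neighbour (AT2G38630) at 7.68 to 17.0. From 12 h S to 48 h S, the step at which AT2G38620 rose, its neighbour went up as well, from a mean of 10.5 to 17.0 TMM CPM, and the part of shared reads in that rise was not tested. At the last 3 time points the same neighbour had means of 8.16, 7.68 and 8.51, and that of AT3G54180 had 38.8, 38.0 and 36.0. The neighbours of the CDKB2 genes stayed below 0.4 TMM CPM.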

How the data were processed

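RNA was extracted from seeds or seedlings of the 10 time points, with 3 biological replicates each, and sequenced from unstranded libraries. The labels name both a total RNA library kit and selection of polyadenylated RNA, and which applied was not settled. The authors trimmed reads with Trim Galore 0.4.2, aligned them to TAIR10 with HISAT2 2.0.5 and deposited featureCounts 1.5.1 counts per gene, which are whole and not normalised. How reads that fit several places or overlapping genes were counted is not given in the sources used here. For transcripts, the authors deposited Salmon 0.7.2 abundances normalised by sleuth 0.28.1 in TPM, recorded here as a signal because the column sums differ between libraries. The deposited table of differentially expressed genes and the authors' transcript tests hold fold changes or p-values of the study and were not used. All value columns could be assigned to a library.

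Counts were fitted over all 30 libraries with edgeR 4.0.16 in R 4.3.3 (TMM, filterByExpr, quasi-likelihood F-test) for 12 comparisons, with Benjamini-Hochberg adjustment over the 23222 genes tested and a call at adjusted p below 0.01. The effect of time was tested with the likelihood ratio test of DESeq2 1.42.0 over 32046 genes with at least 1 read, which is the study's own design. TMM CPM is the CPM of edgeR on the TMM-scaled library size, and levels per kilobase divide it by the exon length. Transcript ratios were tested with limma 3.58.1 on the log2 scale after adding 0.1. The fits were tested on simulated counts with known changes. Total counts ran from 8234345 to 76294780 reads per library, and the shallow libraries are the less precise.

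The 10 genes are picked out by their names alone, but this family and the lists of other genes were taken up with earlier results of these data known. The lists are summarised by counts and medians. Fold changes, some with adjusted p, are also given for single list members, as a description of genes chosen with that knowledge. All 10 genes are named. Any gene of a list of at most 10 genes could be named, as could at most 5 genes with the largest change from 12 h SL to 48 h SL of a longer list, and the 10 genes most alike are named by Pearson r of log2(TMM CPM + 0.5). Promoters and positions were read from TAIR10, where 36868 of 37051 genes matched to RefSeq by locus tag had the same start and end. Proteins were not used here. Alternatives were other scalings, no filter, the DESeq2 Wald test, the replicate number as a block, the libraries of a comparison fitted alone, and each library left out.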

Additional observations from a re-analysis of the deposited data

How the results depend on the processing

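Of 14 counts of the 10 genes called, recomputed in 195 alternative settings in all, 167 stayed within 1.5 times the main count and 28 did not. Of 54 log2 fold changes of called genes, 698 alternative values gave no change of direction, and 37 lost the call. The counts from 0 h to 48 h SL, from 12 h SL to 48 h SL, from 12 h SL to 24 h SL (10 each) and from 24 h SL to 48 h SL (7) were within 1.5 times the main value in every alternative run, and the counts of 10 and 7 were the same without each single library. The unstable counts were those before radicle emergence, where 64 of 210 values rest on 3 reads or fewer. From 0 h to 1 h S the count of 1 became 2 with DESeq2's size factors, 0 with library size alone, 2 with no filter on low counts, 5 with the DESeq2 Wald test, 0 with the 6 libraries alone (where 4 of the 10 genes passed the filter) and 0 without both doubted libraries, and lay between 0 and 6 without single libraries. From 1 h S to 12 h S the count of 4 became 0 with the 6 libraries alone (4 genes tested) and lay between 3 and 5 without single libraries. From 12 h S to 48 h S the count of 2 became 1 with library size alone, with no filter and with the 6 libraries alone, and lay between 1 and 2 without single libraries. Without both doubted libraries CYCB1;1 was called at this step in addition to CDKB1;2 and CDKB2;1. From 6 h SL to 12 h SL the count of 2 became 4 without both doubted libraries and stayed 2 without single libraries. From 0 h to 12 h SL the count of 5 became 3 with DESeq2's size factors, with the Wald test and with the 6 libraries alone, and lay between 3 and 4 without single libraries. From 1 h SL to 6 h SL the count lay between 3 and 4 without single libraries. The causes were not tested. Requiring both transcripts above 1 TPM left neither CYCB1;2 nor CDKB1;2 to test.

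Same-numbered libraries of successive time points did not deviate together in general (27 pairs, r from -0.47 to 0.46, 11 above 0.1). The exception among 9 steps was 6 h SL to 12 h SL, where all 3 pairs were above 0.1 (0.20, 0.20 and 0.37) and the count of 2 was also 2 with the replicate number as a block. Over the whole course the numbers were not taken to pair the samples. With the replicate number as a block the count from 0 h to 1 h S was 0, that from 12 h S to 48 h S was 1 and all others were within 1.5 times the main count, and 11 of the 27 correlated best with their own number.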
